A study of Mus musculus with 2 samples.

Results

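The 9 genes described here encode transcription regulators known for setting up the areas of the cerebral cortex. They are the homeobox genes Emx1, Emx2 and Pax6, the nuclear receptors Nr2f1 and Nr2f2, the zinc finger gene Sp8, the basic helix-loop-helix gene Bhlhe22 and the LIM-only genes Lmo3 and Lmo4. They were taken from a list of named genes with no threshold on their values, and all 9 were found among the 55536 annotated genes of the deposited tables. RNA was measured in 1 group of 2 libraries, made from left cerebral cortex of B6CASTF1/J mice that were female and 4 days old. These mice are first-generation hybrids of a laboratory strain and of CAST/EiJ, a wild-derived inbred strain. No treatment or genotype was contrasted, and both libraries share strain, sex, age, tissue and the input of 300 ng of total RNA with ERCC spike-in RNAs. The labels number the animals separately and call the libraries biological replicates 1 and 2, but give both the same donor entry. A difference between these libraries may thus be technical, and p-values between them allow for counting error only.

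The cortical sheet is divided into motor, somatosensory, visual and other areas, and the first signals for this division come from patterning centers at the edges of the embryonic cortex. Signals from these centers set up graded levels of transcription factors in cortical progenitors: Emx2 and Nr2f1 are known to be high toward the caudal side, where the visual areas form, Pax6 toward the rostral and lateral side, and Sp8 toward the rostral and medial side. Bhlhe22, Lmo3 and Lmo4 are known mainly from postmitotic neurons, in which they are patterned by area or layer around birth. The labels name the left cerebral cortex with no area, so no gradient across it could be measured. In bulk tissue such as this, fewer cells that express a gene and less RNA per cell cannot be told apart.

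Annotated genes held 29310533 expected counts in all in replicate 1, and 28844674 in replicate 2, and no molecular identifiers are named, so all intervals below cover counting error only. Levels are deposited TPM, an abundance scale corrected for transcript length and library total, from the gene table unless another table is named. A gene counted as detected where each library reached 1 TPM. A separate transcript table, made directly from the reads and summed per gene, is called the second table, and the transcript table that goes with the gene table is called the first. Protein-coding genes held 52.3% and 53.1% of the TPM of the gene table but 84.4% and 84.0% of that of the second table, so absolute TPM cannot be compared between them. Markers of cortical projection neurons were detected for 8 of 8 genes, led by Slc17a7 (142 TPM), the vesicular glutamate transporter of cortical neurons. The libraries stood apart in markers of the choroid plexus, the epithelium that secretes cerebrospinal fluid, whose 6 genes summed to 216 TPM in replicate 1 and 5.43 TPM in replicate 2. Ttr, its main secreted product, was at 206 and 1.94 TPM.

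All 9 regulators were detected, beside 59.6% of the 22028 protein-coding genes and 27.6% of all annotated genes. Their levels spanned a wide range, from 138 ± 6.41 TPM (SD, n = 2) for Lmo4 to 5.02 ± 0.495 TPM for Sp8. The order from high to low was Lmo4, Lmo3, Nr2f1, Bhlhe22, Nr2f2, Emx1, Pax6, Emx2 and Sp8. In each of the 8 neighbouring pairs of this order, the lower library of the higher gene was above the higher library of the lower gene. Mean ratios between neighbours ran from 1.06 between Lmo4 and Lmo3 to 2.90 between Emx1 and Pax6. The TPM intervals in the authors' deposited table, whose level is not stated there, overlapped in at least 1 library for 3 neighbours. Those of Emx2 and Sp8 overlapped in both libraries. Those of Lmo4 and Lmo3, and of Pax6 and Emx2, overlapped in replicate 2 only. Of the 8 neighbours, 7 kept this order without overlap in the second table, the exception being Bhlhe22 and Nr2f2, where the mean ratio was 0.970 in place of 1.55. Against the median of 17.2 TPM over detected protein-coding genes, Emx1 and the 5 genes ranked before it were higher and Pax6, Emx2 and Sp8 were lower.

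**Figure D1:**
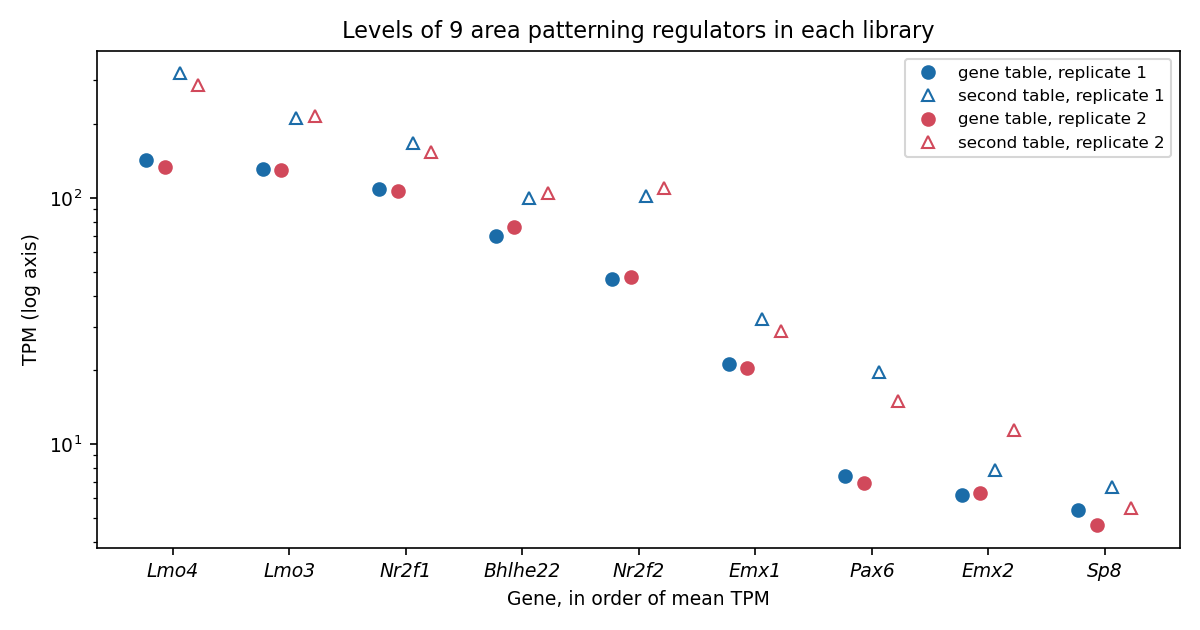
TPM of each gene on a log axis, in order of the mean, with filled circles for the gene table and open triangles for the second table, in blue for replicate 1 and red for replicate 2. The circles step down from 142 and 133 TPM for Lmo4 to 5.37 and 4.67 TPM for Sp8 with no overlap between neighbours, and the triangles lie above the circles for every gene.

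Between the libraries, 0 of the 9 genes were called, against 2.88% of 18492 genes tested, where a call needed an adjusted p below 0.05 together with a log2 ratio of 1 or more in either direction. At an unadjusted p below 0.05, 6 of the 9 passed, against 6392 of the 18492 genes tested. At the adjusted p alone 5 of 9 passed, against 25.1% of all genes tested: Lmo4, Lmo3, Nr2f1, Nr2f2 and Sp8, each lower in replicate 2. The test was an exact two-sided binomial test of scaled counts with Benjamini-Hochberg adjustment over all genes tested. It compares these libraries and no condition, and it allows for no spread between libraries beyond counting error. Counts of Lmo4 were 3709 and 3318, a ratio of 0.881 (interval 0.841 to 0.924, adjusted p = 2.38e-06, exact binomial test). Those of Nr2f1 were 4872 and 4559, a ratio of 0.922 (adjusted p = 0.000718), and those of Nr2f2 were 2442 and 2221, a ratio of 0.896 (adjusted p = 0.00148). Lmo3 had 5477 and 5194 counts, a ratio of 0.934 (adjusted p = 0.00322). These 4 differences were small in size and rested on counts of 2221 or more per library. For Emx1 the ratio was 0.888 (interval 0.787 to 1.00, adjusted p = 0.149), for Emx2 it was 0.815 (0.677 to 0.980, adjusted p = 0.0916) and for Pax6 it was 0.992 (0.834 to 1.18, adjusted p = 0.982). At 215 to 570 counts these intervals are wide and hold the ratio seen for Lmo4, so a difference of that size was not detectable in these genes. The summed olfactory bulb and choroid plexus markers were also higher in replicate 1, at 38.3 against 26.6 TPM and at 216 against 5.43 TPM. At the adjusted p alone, 5 of 8 markers of radial glia and astrocytes were also higher in replicate 1. So were 3 of 8 genes listed for caudal interneurons and 2 of 4 markers of medial interneurons. No gene of these lists passed as higher in replicate 2. Those 3 of the caudal list were Gad1, Dlx1 and Dlx2, which mark inhibitory neurons in general, while its Prox1, Htr3a and Vip did not pass. For Gad1 the TPM pointed the other way, at 70.3 in replicate 1 and 82.4 in replicate 2. Of projection neuron markers 3 of 8 were higher in replicate 1 and 2 in replicate 2. The part of these cells in the differences was not tested.

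The median log2 ratio was -0.16 over the 9 genes and -0.01 over all genes tested, and the median size of the log2 ratio was 0.16 and 0.14. Signs near 0 depended on the setting: that of Bhlhe22 was -0.03 in the second table, and for Pax6 the log2 ratio was -0.01 with the TMM factors used to scale library sizes, 0.01 with DESeq2 size factors and 0.03 with total counts. With total counts 4 of 9 passed at the adjusted p alone, Lmo3 and Nr2f1 dropping out and Bhlhe22 entering as higher in replicate 2. TPM and scaled counts pointed in opposite directions for Nr2f2 and Emx2, whose TPM was slightly higher in replicate 2, by 0.03 and 0.02 on the log2 scale, while their scaled counts were lower there. In the first table the share of the full coding transcript was lower in replicate 2 for Nr2f2-201 (51.5% and 45.5%) and Emx2-201 (67.7% and 56.6%). It was also lower for Emx1-201 (74.3% and 66.7%) and Sp8-201 (86.4% and 80.1%), whose TPM and counts pointed the same way. Lmo4-201 held 37.7% and 37.8%. The part of these shares in the opposite directions was not tested. For Sp8, Lmo4 and Lmo3 the direction was the same in TPM and in counts, though for Lmo3 the log2 ratio of TPM was only -0.01. Log2 ratios of TPM also lay above those of scaled counts for Lmo4 (-0.09 and -0.18) and Bhlhe22 (0.12 and 0.03). For Pax6 the TPM ratio lay below (-0.09 and -0.01).

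**Figure D2:**
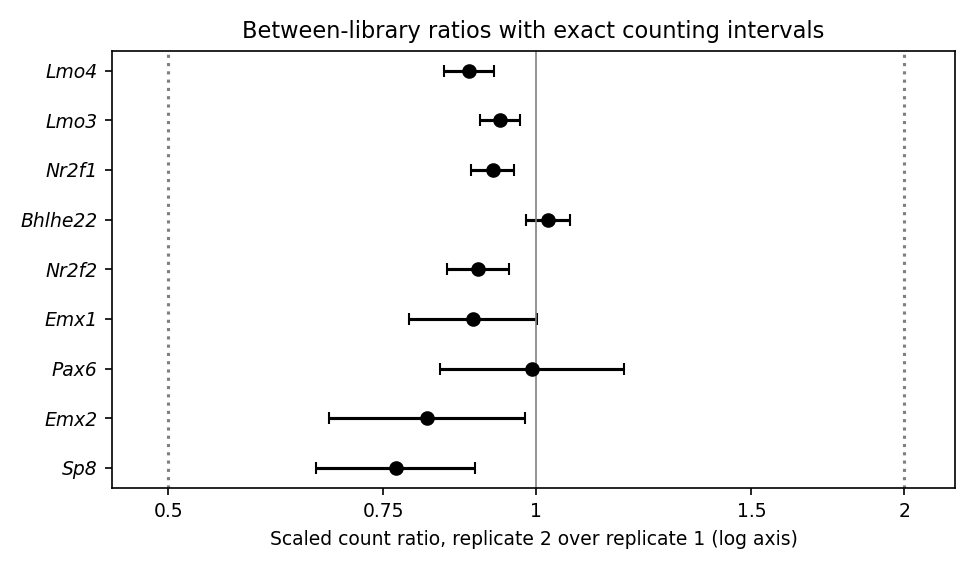
Scaled count ratio of replicate 2 over replicate 1 for each gene on a log axis, with bars for exact 95% Clopper-Pearson intervals that cover counting error, a line at 1 and dotted lines at the fold sizes required for a call. All 9 ratios lie well inside the dotted lines, from 0.767 for Sp8 to 1.02 for Bhlhe22.

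Emx1 and Emx2 are the vertebrate counterparts of the fly head gene empty spiracles, and Emx1 is widely used to mark the lineage of excitatory cortical neurons. Emx1 (ENSMUSG00000033726.8, mm10 chromosome 6, 85187438 to 85204462, plus strand) stood at 21.2 and 20.4 TPM in replicates 1 and 2. Emx2 (ENSMUSG00000043969.4, chromosome 19, 59458372 to 59465357, plus strand), whose loss is known to shrink the caudal areas, stood at 6.22 and 6.30 TPM. In both libraries Emx1 was thus the more abundant of the pair, and the libraries lay close together. The log2 ratio of Emx2 over Emx1, on log2(TPM + 1), was -1.62 in replicate 1 and -1.55 in replicate 2, a mean of -1.59 ± 0.05 (SD, n = 2). The second table gave -1.59 ± 0.46, the same mean with a wider spread. The coding sequences of the longest transcripts were 72.7% identical over aligned bases and their transcripts shared no 31-base word, the length used here to ask whether reads of paralogs could be mistaken for each other.

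Emx1 and Emx2 each had a main coding transcript in both tables. The spliced coding transcript Emx1-201 held 74.3% and 66.7% of the Emx1 TPM in the first table and 67.9% and 57.5% in the second, and the rest was the retained-intron transcript Emx1-202. A retained-intron model holds intronic sequence, which total RNA libraries also capture. Emx2-201 held 67.7% and 56.6% in the first table. Its share differed widely between libraries in the second table, at 95.1% and 57.9%, where the short noncoding transcript Emx2-203 took 0% in replicate 1 and 42.1% in replicate 2. Emx2-202, a short coding model, held 12.3% and 9.63% in the first table. On the opposite strand Emx2os, an antisense RNA that overlaps the start of Emx2 by 264 bases, was at 0.51 and 0.40 TPM. Of the 31-base words of Emx2 transcripts, 7.81% were found on the opposite strand of another gene's transcripts, and for Emx1 none were.

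Pax6 encodes a factor with a paired domain and a homeodomain, known from radial glia, the eye and later the olfactory bulb. The gene (ENSMUSG00000027168.21, chromosome 2, 105668900 to 105697364, plus strand) stood at 7.43 and 6.91 TPM in replicates 1 and 2. Its value was the most dependent on the table: rescaled over protein-coding genes, the second table put it 1.51 times as high as the gene table, the largest such ratio of the 9. The interval in the authors' deposited table ran from 8.14 to 12.0 TPM in replicate 1 and from 7.63 to 11.1 TPM in replicate 2, so in both libraries the deposited TPM lay below its own interval. Emx2 and Pax6, known for opposed gradients in the embryo, were near each other here, with a log2 ratio of Emx2 over Pax6 of -0.22 and -0.12. That ratio did not reach the size of 1 in both libraries that was used to call a pair apart. In the second table it was -1.23 in replicate 1 and -0.36 in replicate 2.

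Pax6 has 26 annotated transcripts, of which 11 are coding, and a different one was highest in each library and table: Pax6-204 and Pax6-202 in the first, Pax6-210 and Pax6-214 in the second. Pax6-204 held 19.5% in replicate 1 and 4.91% in replicate 2 of the first table, and Pax6-202 held 9.12% and 20.8%. Both are full coding models of 1266 bases that differ in their starts. Pax6-225, a full coding model of 1308 bases, held 15.4% and 8.77% in the first table but was at 0% in the second. Pax6-214, a fragment with 53 coding bases, held 11.3% and 10.6% in the first table and 15.4% and 19.4% in the second. The noncoding models Pax6-210, Pax6-226 and Pax6-211 and the retained-intron models Pax6-221 and Pax6-218 passed 10% in at least 1 library of a table. At 266 and 268 counts for the whole gene, shares of single models rest on few reads.

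The models were also grouped by exon 5a. This alternative exon, which inserts residues into the paired domain and is known to alter the DNA sequences it binds, lies at chromosome 2, 105684751 to 105684792, in 9 annotated transcripts, and its 42 bases account for the difference between the coding lengths of 1308 and 1266. Full coding models with it held 22.6% and 18.5% of the Pax6 TPM in the first table, and those without it held 28.6% and 30.9%. In the second table these shares were 4.68% and 8.68% with the exon and 15.3% and 24.3% without it. Models without exon 5a had the larger share in all 4 of these library and table combinations. This grouping, like those by start site below, was chosen after the shares had been seen. The exon is shown because these shares turn on it, from the GENCODE M21 transcripts on GRCm38, plus strand, with no part in capitals.
Pax6 exon 5a: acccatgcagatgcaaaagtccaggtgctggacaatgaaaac

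Nr2f1 and Nr2f2 encode COUP-TFI and COUP-TFII, orphan nuclear receptors known for caudal gradients in the cortex, and Nr2f2 is also known from interneurons of the caudal ganglionic eminence. Nr2f1 (ENSMUSG00000069171.14, chromosome 13, 78188973 to 78199757, minus strand) was at 109 and 106 TPM in replicates 1 and 2. Nr2f2 (ENSMUSG00000030551.14, chromosome 7, 70351944 to 70366735, minus strand) was at 46.7 and 47.7 TPM. Nr2f1 was the higher in both libraries, with a log2 ratio of Nr2f1 over Nr2f2 of 1.20 and 1.14, a mean of 1.17 ± 0.05 (SD, n = 2). In the second table the ratio was 0.72 and 0.48, in the same direction but below the size of 1 for a pair apart. Nr2f1 was also far above the rostral regulators, with a log2 ratio of 3.73 ± 0.04 over Pax6 and 4.17 ± 0.10 over Sp8. These rostral ratios stayed above 1 in the second table, at 3.15 ± 0.18 and 4.52 ± 0.09.

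The coding sequences of Nr2f1-201 and Nr2f2-201 were 83.6% identical, the closest of the paralog pairs, with a longest shared run of 59 bases. Of 31-base words, 39 were shared between the 5090 of Nr2f1 and the 8550 of Nr2f2 transcripts. The deposited posterior SD of both genes' counts, a measure of uncertainty in assigning reads, was 0 in both libraries.

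Nr2f1-201, the full coding transcript, was the main transcript in both tables, with 63.8% and 63.4% of the Nr2f1 TPM in the first and 54.9% and 56.1% in the second. Nr2f1-202, which starts 3384 bases downstream and holds 819 coding bases, had 25.2% and 21.2% in the first table and 14.9% and 12.6% in the second. Nr2f1-203 had 0.88% and 1.01% in the first table but 21.7% and 20.3% in the second, a difference between the tables that both libraries showed. For Nr2f2, the full coding transcript Nr2f2-201 led in the first table with 51.5% and 45.5%. The short model Nr2f2-204, of 636 bases, led in the second with 35.0% and 44.6%, against 19.8% and 24.0% in the first. Nr2f2-202, which starts 6142 bases upstream and holds 843 coding bases, had 20.8% and 19.4% in the first table and 18.7% and 13.9% in the second. The retained-intron model Nr2f2-203 had 12.7% and 12.3% in the second table against 1.70% and 2.08% in the first.

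Both nuclear receptor genes lie beside antisense RNAs with measurable levels. A830082K12Rik, which runs opposite Nr2f1 and overlaps it by 1741 bases, was at 21.4 and 22.7 TPM in replicates 1 and 2, or 20.5% of the mean level of Nr2f1. It was the most abundant of the neighbouring genes examined. B130024G19Rik, opposite Nr2f2 with 1826 bases of overlap, was at 3.18 and 4.44 TPM. By scaled counts both antisense genes were higher in replicate 2, with log2 ratios of 0.25 for A830082K12Rik (adjusted p = 0.0177) and 0.62 for B130024G19Rik (adjusted p = 0.00390, exact binomial test), while their partners were lower there. Of the 31-base words of Nr2f2 transcripts, 7.75% occur on the opposite strand of another gene, and 1.51% for Nr2f1. The labels name a spike-in profile for stranded libraries, but whether counting used the strand is not given in the sources used here, so reads of the overlapped bases cannot be assigned to a partner with certainty. On the same strand as Nr2f1, the nearby Gm38604 was at 1.24 and 0.95 TPM, and near Nr2f2 the lincRNAs Gm44946 and Gm44948 rested on at most 8 counts per library.

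Sp8 encodes a zinc finger factor known to promote Fgf8 expression in the rostral patterning center, and later to mark interneurons of the olfactory bulb and of the caudal and lateral ganglionic eminences. The gene (ENSMUSG00000048562.7, chromosome 12, 118846329 to 118852576, plus strand) was the lowest of the 9, at 5.37 and 4.67 TPM in replicates 1 and 2. Its counts of 403 and 314 gave a scaled ratio of replicate 2 over replicate 1 of 0.767 (95% Clopper-Pearson interval 0.660 to 0.892). This was the largest difference between the libraries among the 9 genes, with a log2 ratio of -0.38 and an adjusted p of 0.00322 in the exact two-sided binomial test, though below the log2 size of 1 required for a call. Of 6 markers of the olfactory bulb, 3 were called higher in replicate 1 (Eomes, Cdhr1 and Tbx21) and none in replicate 2. Tshz1 (20.8 and 16.2 TPM) and Cdhr1 (9.85 and 4.66 TPM) were the most abundant of them, and Tbx21, a factor of mitral and tufted cells, was at 0.45 and 0.16 TPM. Of the list's other genes, Tshz1 passed at the adjusted p alone, with a log2 ratio of -0.46 (adjusted p = 1.62e-19, exact binomial test). Sp9, the paralog of Sp8, was at 3.94 and 4.06 TPM and did not pass (adjusted p = 0.565, exact binomial test). Nor did Th, which makes dopamine, at 0.86 and 0.84 TPM (adjusted p = 0.901, exact binomial test). The part of that tissue in the Sp8 difference was not tested.

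The long coding transcript Sp8-201 held 86.4% and 80.1% of the Sp8 TPM in the first table, and all of it in the second, with the short model Sp8-202 holding the rest. No other annotated gene overlapped Sp8 or started within 10 kb of it. The bases just before the start of Sp8-201 are shown, from the RefSeq promoter table on GRCm38.p6, because this was the only one of 14 windows for these genes with the motif TATAAA or its complement TTTATA, in capitals. The window was chosen after the windows had been examined. It lies at chr12:118846079-118846328 on the plus strand, directly upstream of the first exon.
Sp8 upstream of Sp8-201: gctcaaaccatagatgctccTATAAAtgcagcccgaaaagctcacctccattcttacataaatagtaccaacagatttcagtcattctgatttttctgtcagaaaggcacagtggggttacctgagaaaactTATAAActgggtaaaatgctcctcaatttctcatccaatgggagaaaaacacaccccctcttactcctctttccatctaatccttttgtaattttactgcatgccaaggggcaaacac

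Bhlhe22 encodes a basic helix-loop-helix repressor of postmitotic projection neurons that is known to work with Prdm8. The gene (ENSMUSG00000025128.7, chromosome 3, 18054174 to 18057517, plus strand) stood at 69.8 and 76.1 TPM in replicates 1 and 2. It was the one regulator of the 9 with a scaled count ratio above 1, at 1.02 (interval 0.981 to 1.07), and did not pass the test (adjusted p = 0.487, exact binomial test). It has 1 annotated transcript, and none of its 31-base words occurred in another gene. No other annotated gene overlapped it or started within 10 kb of it. The upper bounds in the authors' deposited table, 69.5 and 75.5 TPM, lay slightly below the deposited TPM. Its partner Prdm8 was at 28.3 and 30.1 TPM, below Bhlhe22 in both libraries.

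Lmo3 and Lmo4 encode small proteins made of LIM domains. They bind no DNA themselves and act by competing for or bridging partners such as Ldb1. Lmo4 (ENSMUSG00000028266.17, chromosome 3, 144188530 to 144205220, minus strand) was at 142 and 133 TPM in replicates 1 and 2, and Lmo3 (ENSMUSG00000030226.12, chromosome 6, 138362918 to 138581968, minus strand) was at 131 and 130 TPM. They ranked 624 and 678 among the 22028 protein-coding genes. The log2 ratio of Lmo4 over Lmo3 was 0.12 and 0.03, a mean of 0.08 ± 0.06 (SD, n = 2). Lmo4 was higher in each library, by a ratio close in size to its SD. In the second table the ratio was 0.59 and 0.41, again with Lmo4 higher. The coding sequences were 61.9% identical, with no run over 9 bases in common and no shared 31-base word.

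**Figure D3:**
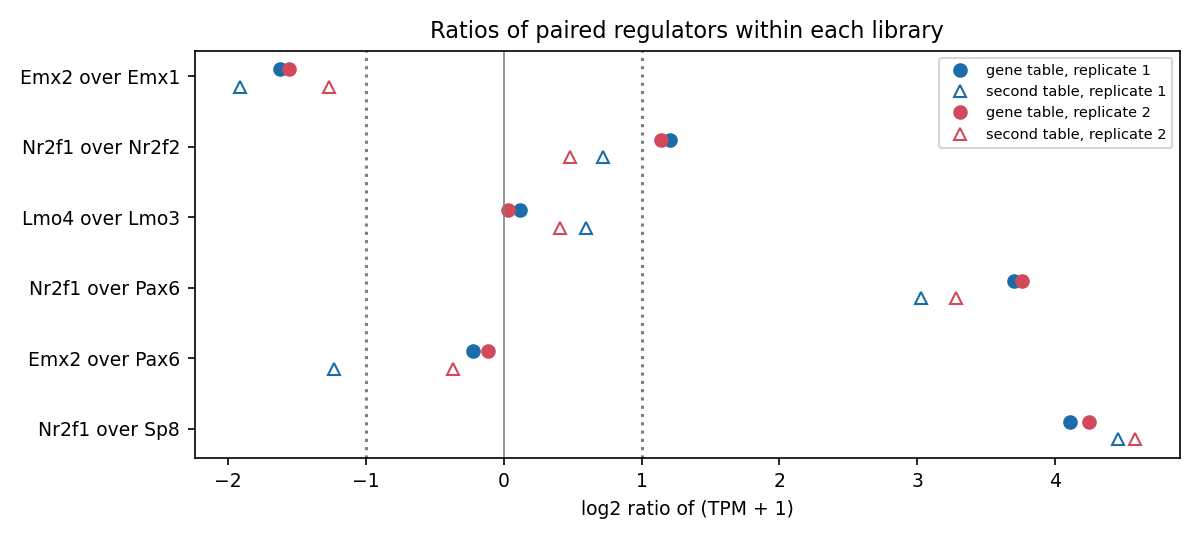
Log2 ratio of (TPM + 1) between paired regulators within each library, with filled circles for the gene table, open triangles for the second table and dotted lines at -1 and 1. For 4 of 6 pairs both filled circles lie beyond the dotted lines, and in the second table Nr2f1 over Nr2f2 moves inside them, at 0.72 and 0.48.

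In the first table most Lmo4 RNA was assigned to models that begin at 2 places 2824 bases apart, measured from Lmo4-201 to Lmo4-203. Models that begin at the upstream start, led by Lmo4-201, held 41.1% and 41.4% of the Lmo4 TPM in the first table and 28.7% and 24.8% in the second. Those that begin at or near the downstream start held 51.7% and 51.1% in the first table and 48.3% and 46.7% in the second. The downstream group was the larger in both libraries and both tables, but in the second this rests on Lmo4-208, which begins further upstream than the others of the group. Without it the downstream models held 20.9% and 26.2% there, below the upstream start in replicate 1 and above it in replicate 2. Single models also differed between the tables. Lmo4-201 led the first table with 37.7% and 37.8%, but Lmo4-203 went from 33.4% and 34.3% in the first to 0% in the other. Lmo4-202 had 14.2% and 13.3% in the first and 20.9% and 25.6% in the second. Lmo4-208, a model of 571 bases, had 2.97% and 1.26% in the first and 27.4% and 20.5% in the second, and the retained-intron model Lmo4-206 had 7.28% and 7.50% in the first and 23.0% and 28.4% in the second. Lmo4-201, Lmo4-202 and Lmo4-203 share a coding length of 495 bases. Inside the gene, the sense intronic RNA Gm43445 was at 3.52 and 4.86 TPM.

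The bases upstream of these starts are shown because each start accounts for a large share of Lmo4 RNA. They come from the RefSeq promoter table on GRCm38.p6, minus strand, trimmed to bases before the RefSeq start and outside annotated exons, with the GC box GGGCGG or its complement CCGCCC in capitals. The upstream window at chr3:144205256-144205505 held 3 GC boxes, counting overlapping ones, and was 82.4% G or C. The downstream window at chr3:144202397-144202646 also held 3 and was 73.6% G or C.
Lmo4 upstream start: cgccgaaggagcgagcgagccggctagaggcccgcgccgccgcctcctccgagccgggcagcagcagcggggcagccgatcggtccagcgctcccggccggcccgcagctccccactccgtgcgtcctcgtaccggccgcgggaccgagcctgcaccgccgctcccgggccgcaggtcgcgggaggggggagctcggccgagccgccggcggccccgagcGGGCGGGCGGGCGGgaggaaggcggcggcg
Lmo4 downstream start: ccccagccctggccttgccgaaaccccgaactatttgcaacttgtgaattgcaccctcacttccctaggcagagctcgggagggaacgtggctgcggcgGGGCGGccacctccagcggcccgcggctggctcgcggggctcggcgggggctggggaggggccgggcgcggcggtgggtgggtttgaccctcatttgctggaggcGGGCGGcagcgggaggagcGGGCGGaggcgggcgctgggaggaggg

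Lmo3 also uses distant starts. Lmo3-206 was the main transcript in all 4 library and table combinations, with 42.1% and 41.5% in the first table and 35.5% and 33.8% in the second. Lmo3-204 begins 158994 bases further upstream and held 38.1% and 37.1% in the first table and 31.6% and 27.8% in the second. Starts other than this distal one held 62.0% and 62.9% in the first table and 68.4% and 72.2% in the second. Both main transcripts encode 435 coding bases. Lmo3-207, with a coding length of 468 bases, had 8.05% and 9.92% in the first and 18.1% and 20.1% in the second, and Lmo3-203 had 1.62% and 0.62% in the first and 10.3% and 13.8% in the second. The antisense gene A830011K09Rik, opposite the minor starts of Lmo3-201, Lmo3-205 and Lmo3-208 and not overlapping that of Lmo3-206, was at 1.40 and 1.06 TPM. The window before the distal start, at chr6:138581969-138582218 on the minus strand of GRCm38.p6, was 50.0% G or C and held neither a GC box nor TATAAA. It is shown for contrast with the GC-rich starts of Lmo4, and has no capitals.
Lmo3 distal start: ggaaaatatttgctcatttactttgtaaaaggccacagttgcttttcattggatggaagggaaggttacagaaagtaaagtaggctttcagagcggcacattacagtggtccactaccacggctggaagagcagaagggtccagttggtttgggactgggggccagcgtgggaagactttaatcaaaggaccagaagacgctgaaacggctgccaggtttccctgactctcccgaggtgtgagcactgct

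**Figure D4:**
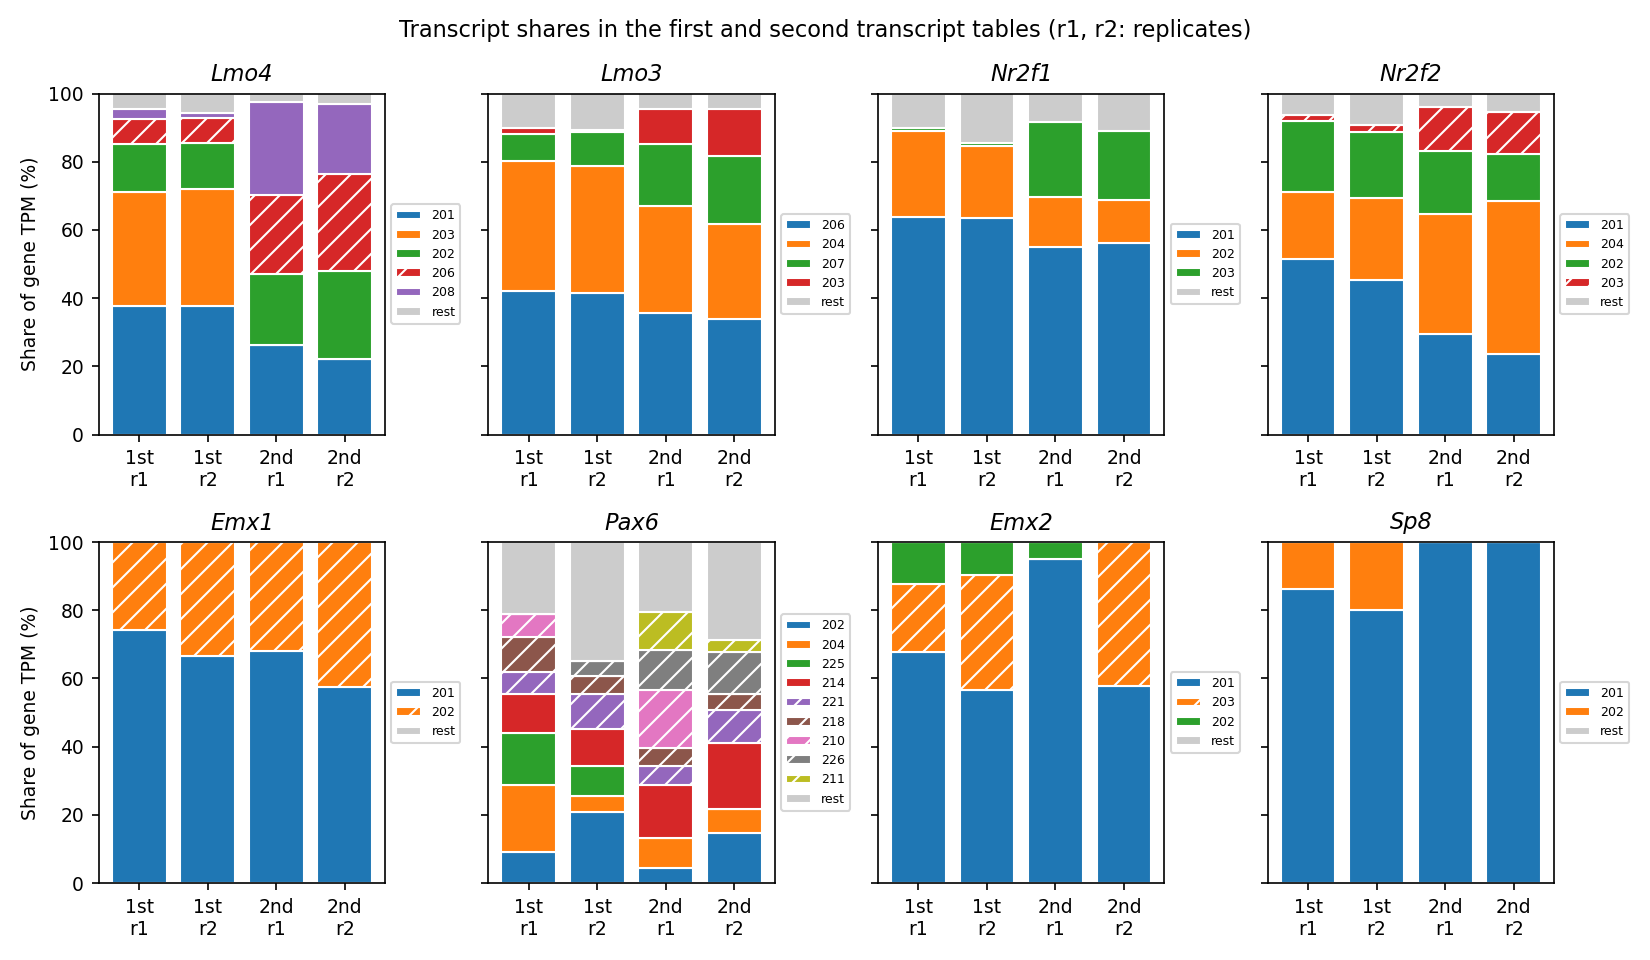
Share of each gene's TPM by transcript, in percent, for replicates 1 and 2 (r1, r2) in the first and second transcript tables (1st, 2nd), with hatching for noncoding models, colours for models with at least 10% in a library of either table and grey for the rest. Bars of the same table resemble each other for Lmo3, Lmo4, Nr2f1 and Nr2f2, while those of Pax6 and the second-table bars of Emx2 differ between libraries.

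Of the 8 genes with several annotated transcripts, 5 had the same main transcript in both libraries and both tables: Lmo3, Nr2f1, Emx1, Emx2 and Sp8. The exceptions were Nr2f2, which changed with the table, Lmo4, which changed with the table and, within the second, between the libraries (Lmo4-208 and Lmo4-206), and Pax6. Within the first table alone the main transcript was the same in both libraries for 7 of the 8, and within the second for 6. After both tables were put on a scale of protein-coding genes, gene levels in the second were 1.40 times as high for Nr2f2, 1.38 for Lmo4 and 1.51 for Pax6, the same 3 genes. For the other 6 this ratio lay between 0.759 for Sp8 and 1.03 for Lmo3.

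RefSeq promoter windows of 300 bases were found for 8 of the 9 genes, 14 windows in all. Of these, 6 lay wholly in annotated exons. No window's RefSeq start lay within 100 bases of the starts of the main transcripts Nr2f1-201, Nr2f2-201, Lmo3-206, Emx1-201 and Emx2-201. The only window of Lmo3 was that of the distal start, of Lmo3-204. A GC box (GGGCGG or CCGCCC) occurred in 7 of the 14, from 5 genes, against 35.7% of 32851 windows. The motif AGGTCA or its complement TGACCT, the core of nuclear receptor sites, occurred in 1 window, of Sp8, against 16.3% of all. The homeodomain core TAATTA occurred in 2 windows, of Emx2 and Sp8, against 5.29%. TATAAA or TTTATA occurred in 1 window against 13.6%, and the E-box CATATG in none against 3.91%. Windows of a gene can overlap, as those of Lmo4 do, and a match is a description of letters only. The median G or C content was 59.8% for the 14 windows and 52.7% for all.

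Other regulators of cortical patterning gave the 9 genes their context, from a list of 10. Of these, 8 were detected. Dmrt3, a caudal and medial progenitor factor, was the lowest at 0.29 and 0.09 TPM. Between the libraries 1 of the 9 tested was called: Eomes, the T-box factor of intermediate progenitors and of olfactory bulb projection neurons, was at 2.44 and 0.61 TPM in replicates 1 and 2. Paralogs were detected for 4 of 5 genes, led by Lmo1 (23.1 TPM) and Nr2f6 (16.3 TPM), both well below their relatives among the 9, with Bhlhe23 lowest at 0.09 and 0.02 TPM. None of the 4 tested was called. All 7 cofactors were detected, led by Ssbp2 (131 TPM), which binds the LIM-domain adaptor Ldb1, and Bcl11a (100.04 TPM), with Prdm8 lowest at 29.2 TPM. None of these 7 was called.

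Genes of the patterning centers were mostly near or below the limit of detection, with 6 of 14 detected. Fgf8, the rostral organizer signal, was listed at 0 counts in both gene tables, which allows up to 3 counts in each library, and at 0.368 and 0.375 TPM in the second table. Tgfa (14.4 TPM) and Wnt5a (7.17 TPM) were the highest. None of the 8 tested was called. By contrast all 13 markers that are patterned by area or layer in the young cortex were detected, led by Id2 (90.0 TPM) and Tenm3 (79.9 TPM), with Ntf3 lowest at 5.79 TPM. None of these 13 was called between the libraries, and at the adjusted p alone 4 were higher in replicate 1 and 3 in replicate 2.

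Several of the 9 genes are also expressed outside cortical projection neurons, and markers of those cells were present. All 8 markers of radial glia and astrocytes were detected, led by Fabp7 (565 TPM) and Slc1a3 (109 TPM), with Sox9 lowest at 10.8 TPM. So were all 8 genes listed for interneurons of the caudal eminence, led by Gad1 (76.4 TPM) and Dlx1 (32.0 TPM). Gad1, Gad2, Dlx1, Dlx2 and Dlx5 of this list mark inhibitory neurons in general and do not single out the caudal eminence. Its other genes, Prox1, Htr3a and Vip, were at 7.7, 2.3 and 1.92 TPM, Vip being the lowest of the list. All 4 markers of the medial eminence were also detected, led by Sst (159 TPM) and Lhx6 (27.8 TPM), with Nkx2-1 lowest at 1.43 TPM. The lowest projection neuron marker was Fezf2 at 27.0 TPM. Vessel markers were detected for 7 of 7 genes, from Cldn5 (40.7 TPM) and Rgs5 (35.2 TPM) to Tek (5.73 TPM), and meningeal markers for 6 of 6, from Col1a2 (33.7 TPM) and Col1a1 (33.1 TPM) to Lum (2.05 TPM). Markers of the striatum, which lies under the cortex, were detected for 6 of 6, from Ppp1r1b (28.0 TPM) and Rgs9 (17.7 TPM) to Drd2 (3.09 TPM), some of which cortical neurons also express. In none of these 7 lists was a gene called between the libraries.

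Of the markers of the thalamus and hindbrain, 2 of 6 were detected, led by Tcf7l2 (8.33 and 5.92 TPM) and Lhx9 (3.35 and 2.42 TPM), and Hoxb3 and Hoxc6 were listed at 0 counts in both libraries. None of the 3 tested was called, though 2 were higher in replicate 1 at the adjusted p alone. In the choroid plexus list 5 of 6 genes were called higher in replicate 1. Ttr was the highest, Folr1 was next at 4.13 and 0.69 TPM, and Kl was the lowest at 0.75 and 0.58 TPM. How much of each regulator's level came from any of these cells was not tested.

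**Figure D5:**
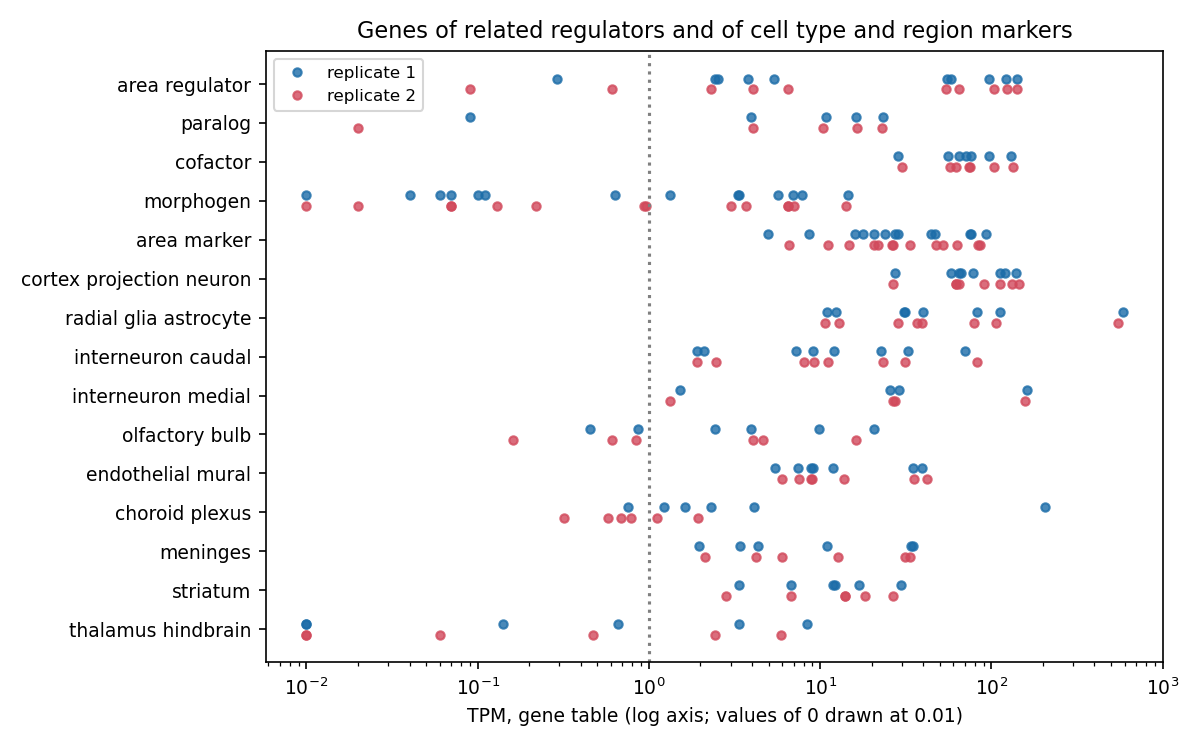
TPM of each gene of the 15 context and marker lists on a log axis, in blue for replicate 1 and red for replicate 2, with values of 0 drawn at 0.01 and a dotted line at the detection limit of 1 TPM. Most lists lie at like levels in both libraries, and the choroid plexus list has a single point at 206 TPM in replicate 1 with no counterpart in replicate 2.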

How the data were processed

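Total RNA-seq of 2 left cortex libraries was analysed, each with 3 tables. Assembly mm10 and GENCODE M21 are named per the deposited file descriptions. Not given in the sources used here are the aligner, the quantifier versions and the treatment of CAST/EiJ variants.

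Per the file headers, the gene table and the first transcript table, made from transcriptome alignments, hold expected counts: reads shared between features were split by the authors' quantifier. The second transcript table, made from reads directly, holds estimated counts per the file headers. Deposited TPM is scaled by effective length, spike-ins included. The percent deposited per transcript is its share of the gene's TPM. The deposited posterior SD of each count, a score of assignment uncertainty, and the deposited interval bounds were copied.

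The 9 genes, 6 pairs and 15 lists (109 symbols, all matched) were chosen with earlier results of these data known. Of the counts, 0.330% and 0.346% lay outside annotated genes (spike-ins and entries naming no gene) and were left out of library sizes. Expected counts were rounded to whole numbers. Genes whose counts summed to 20 or more were compared by an exact two-sided binomial test with TMM-scaled library sizes (edgeR 4.0.16, R 4.3.3; factors 0.985 and 1.02) and Benjamini-Hochberg adjustment, and the test was tested on simulated data. Ratios carry 95% Clopper-Pearson intervals, and log2 ratios of counts had 0.5 added to each count. Pairs were called apart at a log2 ratio of (TPM + 1) of 1 or more in size, with 1 sign throughout. A sign-flip test over 2 libraries cannot go below a p of 0.5, so none was run. DESeq2 1.42.0 gave alternative size factors. Other steps used scipy 1.17.1, numpy 2.4.6, pandas 2.3.3 and, for plots, matplotlib 3.10.9 under Python 3.11.15.

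Named were every one of the 9 genes, of each list the 2 highest and the lowest by mean TPM, and transcripts with at least 10% of a gene's TPM. Genes that overlap one of the 9 or start within 10 kb of it were named at a mean of at least 0.1 TPM. Some results that this rule names are left out. Folr1, Eomes, Sp9, Th, Gad2, Dlx2, Dlx5, Prox1 and Htr3a were named beside their lists after their values were seen. Protein identity was not analysed here, and coding bases were aligned in its place. Printed windows were chosen after the windows had been examined.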

Additional observations from a re-analysis of the deposited data

How the results depend on the processing

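Of 27 alternatives to the 6 main counts, 25 left the count within 1.5 times its value, among them 6 that left out a library. Without a fold threshold the count of regulators that passed between the libraries was 5 in place of 0, and with a log2 threshold of 2 the count of pairs apart was 2 in place of 4. It was 3 in the second table. Leaving out a replicate gave 8 neighbouring genes apart in order, 9 genes detected and 4 pairs apart, whichever of the libraries was left out. Since these counts ask for both libraries to meet their limit, leaving one out could not lower them and says nothing about stability. With a limit of 5 TPM, 8 of the 9 genes were detected, Sp8 dropping out. Of the 109 listed symbols, 95 were detected at a TPM of at least 0.5 and 71 at 5, in place of 88. TPM levels of all 9 genes moved by more than the SD between libraries when rescaled over protein-coding genes, taken from the second table, or both, the last an alternative chosen after seeing the data. These alternatives put the levels on another TPM scale. Protein-coding genes held 52.3% and 53.1% of the TPM, so rescaling over them raises every gene. That move was thus fixed in advance and says nothing about stability. No direction reversed among the pair ratios. Intervals and p-values for differences between the 2 libraries cover counting error only, while the differences themselves can hold more than that. The lowest gene counts, near 215 to 403, limit precision most for Emx2, Pax6 and Sp8. No paired analysis was possible because both libraries belong to 1 group.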
